A study of Mus musculus with 6 samples.

Results

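MicroRNA genes with a clear array signal in mouse liver were compared between animals lacking the receptor Gpr146 and their wild-type littermates. A gene entered when its probe set carried 1 platform symbol of the microRNA kind and its mean log2 signal over the 6 arrays was at least 3.0, and the probe set with the highest mean stood for the gene. Host transcripts whose symbols end in hg were left out. This gave 109 of the 478 microRNA genes on the table, among 22180 genes in all. Members were thus chosen by their mean signal over all 6 mice, so levels are given as a description, and the rule did not use the genotype. Just inside the limit lay Mir181a-2 at a mean of 3.05, Mir760 at 3.04 and Mirlet7d at 3.04, and just outside lay Mir298 at 2.99, Mir551b at 2.98 and Mir142 at 2.97. The lowest members are therefore separated from excluded genes by less than the spread between mice.

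The livers came from 3 knockout (KO) and 3 wild-type (WT) male mice, with 1 array per mouse. Per the labels, KO mice lacked Gpr146, a G protein-coupled receptor, in the whole body, and WT mice were littermates; which part of the gene was removed is not stated there. Both groups were on the C57BL/6J background, were 24 weeks old and ate chow, and livers were taken 6 hours into refeeding that followed a 16-hour fast. Because the deletion was in every tissue and the samples were whole liver, fewer cells of a type and less RNA per cell cannot be told apart.

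MicroRNAs are short RNAs that silence messenger RNAs. A long primary transcript folds into a hairpin, the nuclease Drosha with its partner Dgcr8 cuts the hairpin free, Xpo5 carries it out of the nucleus, Dicer1 trims it, and an Argonaute protein such as Ago2 holds the mature strand. The mature strand finds its targets mainly through its seed, the bases near its 5′ end. In the liver the best-known microRNA is Mir122, made in hepatocytes and tied to lipid metabolism. Many microRNA genes lie inside longer genes and share their transcript. The array was labelled by a whole-transcript method from total RNA, so the values are signals of probe sets placed at microRNA genes. They do not separate the primary transcript or hairpin from the mature strand, and a signal from 1 probe set cannot be ranked against another as abundance.

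Sequences were matched by gene to RefSeq on the GRCm38.p6 assembly, where 84 members had a hairpin and 92 had at least 1 mature strand, 147 strands in all. Coordinates are those of this reference, since no source used here names the build of the array. The first set shows mature strands of some of the members named below for their differences between genotypes, from 0.35 in size (Mir139) upward. Each is written 5′ to 3′, with the seed (bases 2 to 8) in capitals.
Mir107, 3p strand, chr19:34820700-34820722, minus strand: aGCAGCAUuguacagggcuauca
Mir107, 5p strand, chr19:34820737-34820759, minus strand: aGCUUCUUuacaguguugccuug
Mir5125, chr17:23823339-23823358, plus strand: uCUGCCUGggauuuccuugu
Mir680-2, chrX:144297790-144297810, plus strand: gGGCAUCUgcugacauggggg
Mir139, 5p strand, chr7:101475382-101475403, plus strand: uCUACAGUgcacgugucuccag
Mir1938, chr12:40222782-40222803, minus strand: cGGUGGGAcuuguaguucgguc
Mir1943, 5p strand, chr15:79375271-79375293, minus strand: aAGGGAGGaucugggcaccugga
Mir5123, chr4:40850057-40850080, minus strand: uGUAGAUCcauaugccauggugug
These members have unlike seeds, so they were not 1 seed family. Mir122 and Mir1948 are named only.

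The strand below is shown because it is nearly the same as that of Mir107. It is made from both Mir103-1 (chr11:35782447-35782469) and Mir103-2 (chr2:131288103-131288125), and it has the seed of the Mir107 3p strand.
Mir103-1 and Mir103-2, 3p strand, plus strand: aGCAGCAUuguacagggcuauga
Over 23 bases it differs from the Mir107 strand at 1. The 3 genes lie in the 3 pantothenate kinase genes Pank1, Pank2 and Pank3. Only Mir107 reached the level for membership, with a mean of 5.37, against 2.06 for Mir103-2 and 1.76 for Mir103-1.

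Other seeds were shared within the members, in 9 groups. Mir15a and Mir16-1, neighbours in the non-coding gene Dleu2 and known as a tumour-suppressing pair, are printed as the example.
Mir15a, 5p strand, chr14:61632075-61632096, minus strand: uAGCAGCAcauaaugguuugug
Mir16-1, 5p strand, chr14:61631936-61631957, minus strand: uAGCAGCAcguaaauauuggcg
The other seed groups were Mir181a-2 with Mir181c and Mir181d, Mirlet7a-1 with Mirlet7d, Mir194-1 with Mir194-2, Mir680-2 with Mir680-3, Mir9-1 with Mir9-3 (a seed on each strand), Mir149 with Mir1943, and Mir3473d with Mir674. A mature strand identical to that of another microRNA gene was present in 15 members.

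The hairpins of Mir5099 and Mir703 are shown because these genes gave 2 of the highest signals, and that of Mir107 because of its gap between genotypes. Capitals mark the mature strand where the reference lists one.
Mir5099, chr12:36816205-36816278, plus strand: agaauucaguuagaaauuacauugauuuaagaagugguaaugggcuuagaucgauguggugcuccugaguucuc
Mir703, chr5:98475556-98475664, minus strand: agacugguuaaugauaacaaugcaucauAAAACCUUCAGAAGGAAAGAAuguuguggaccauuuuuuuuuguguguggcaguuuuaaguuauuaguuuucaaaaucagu
Mir107, chr19:34820687-34820773, minus strand: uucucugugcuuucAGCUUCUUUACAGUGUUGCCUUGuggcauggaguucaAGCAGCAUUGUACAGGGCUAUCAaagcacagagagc
G and C made up 37.8% of the Mir5099 hairpin, 31.2% of the Mir703 hairpin and 47.1% of the Mir107 hairpin. The Mir703 hairpin had the lowest share among the members with a hairpin.

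The 6 arrays were alike. Their medians spanned 2.67 to 2.73 (log2), with pairwise correlations of 0.983 to 0.988 across probe sets. For the targeted gene Gpr146 the signal was 5.96, 5.56 and 5.65 in the WT mice, in the order 1 to 3 kept throughout, and 4.61, 4.28 and 3.87 in the KO mice. The groups did not overlap, and KO minus WT was -1.47 ± 0.19 (SE) with limma's adjusted p at 0.0702; over the alternatives limma's adjusted p ranged from 0.0204, after median centring of the arrays, to 0.268, without WT mouse 1. It also passed 0.05 without WT mouse 3 (0.0268) and with the trend and robust options (0.0272), and in no other alternative. Alb, the main plasma protein gene of hepatocytes, differed by -0.01 between groups. The precision of everything that follows is limited by 3 mice a group.

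The name "above background" was checked against genes that liver does not use. The 1394 olfactory and vomeronasal receptor genes on the table had a median of 1.62 and a 95th percentile of 2.90, so the limit of 3.0 lay just above that percentile. However, 66 of these receptor genes (4.73%) also reached 3.0, and the highest stood at 10.59, which 1 member exceeded. A signal of 3.0 therefore did not by itself separate every microRNA gene from silent genes. A signal of 3.0 was reached by 49.7% of all genes and by 22.8% of microRNA genes, whose median was 1.99.

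**Figure D1:**
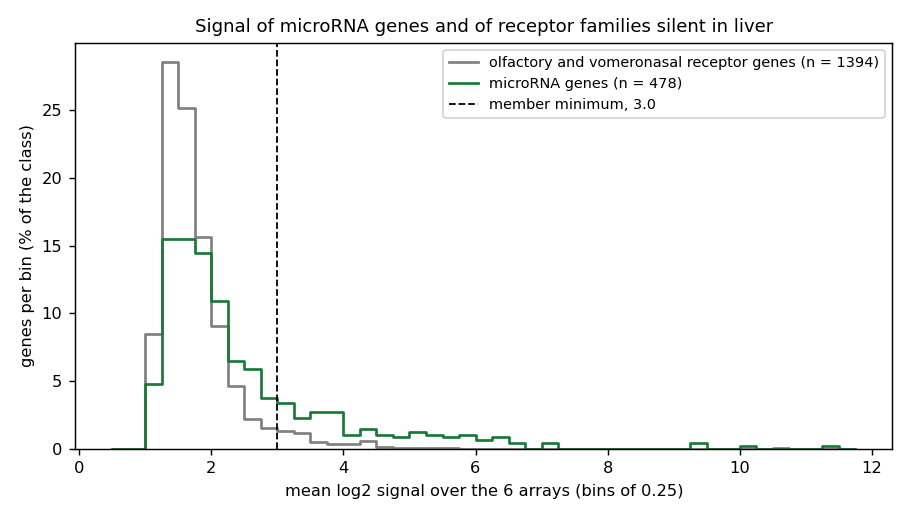
Mean log2 signal over the 6 arrays for the microRNA genes and for the olfactory and vomeronasal receptor genes, in bins along the x axis with the percentage of each class on the y axis, and with the member minimum of 3.0 marked. Both groups pile up below 3.0, and the 109 members form the upper tail of the 478 microRNA genes.

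Most members sat low in the range. Their median was 4.06, with 53 between 3 and 4, 41 between 4 and 6 and 15 at 6 or more. The highest signals were those of Mir5099 at 11.38, Mir449b at 10.16, Mir703 at 9.39 and Mir692-1 at 9.31. Then came Mir1195 at 7.24, Mir467c at 7.10, Mir5125 at 6.72, Mir505 at 6.69, Mir3058 at 6.48 and Mir1954 at 6.45. Mir449b lies in Cdc20b, whose own probe set measured between 2.30 and 2.48 in the 6 mice. Mir703 lies in Cfap299, which measured between 1.28 and 1.48. Both host genes were thus below the signal filter.

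The microRNA genes known from liver were mostly not members, and neither were microRNA genes in general, of which 22.8% were. Of 12 hepatocyte microRNA genes listed from general knowledge, all on the table, 4 reached 3.0, namely Mir122, Mir194-1, Mir194-2 and Mir455. Of 19 liver-abundant ones on the table, 4 did, namely Mir30c-2, Mir30d, Mirlet7a-1 and Mirlet7d. Mir192 stood at 2.05, Mir101b at 1.82, Mir148a at 1.47 and Mir802 at 1.33, all microRNAs for which hepatocytes are known. These 4 lay below the 95th percentile of the receptor genes. The hepatocyte protein genes Apoa1 and Ttr were at 11.2 and 11.6.

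Some listed markers of other tissues were members too, to be read beside the 22.8% of all microRNA genes. There were 2 of 3 neuronal microRNA genes on the table (Mir9-1 and Mir9-3), 1 of 4 pancreatic (Mir375), 1 of 2 erythroid (Mir451a) and 1 of 3 of smooth muscle and stellate cells (Mir143). None of the 4 bile duct, 8 muscle, 1 blood cell and 1 lymphoid microRNA genes on the table was a member.

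The members had hairpins richer in G and C than the other microRNA genes. The median share was 54.8% over 84 members, ranging from 31.2% to 74.8%, and 47.1% over 316 other microRNA genes. Of the 100 genes with the highest share (54.1% or more) 45 were members, and of the 100 with the lowest (42.5% or less) 11 were. Over all 400 genes with a hairpin, signal and G and C share correlated at a Pearson r of 0.36 and a Spearman rho of 0.50. Within the 84 members the values were -0.12 and 0.02. These are descriptions across genes that share the same 6 arrays, and the part of base composition in a probe's brightness was not tested.

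**Figure D2:**
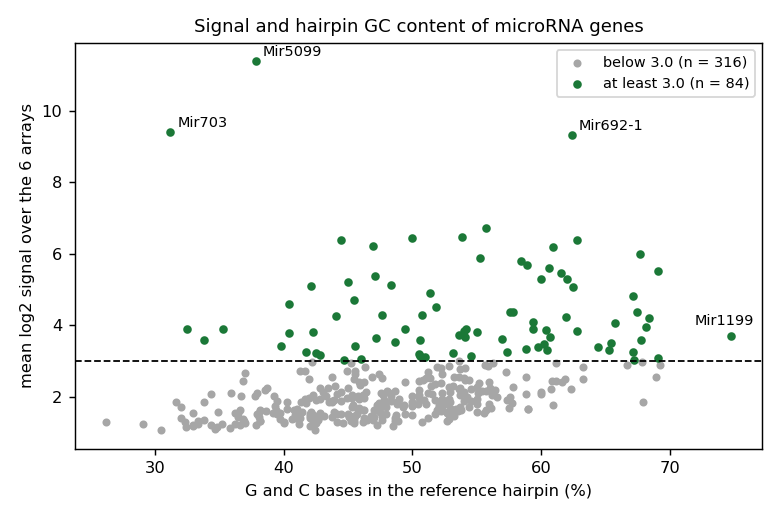
Share of G and C in the hairpin (x axis, %) against mean log2 signal over the 6 arrays (y axis) for 400 microRNA genes, with the members set apart from the rest. Members lie further right, with a median of 54.8% against 47.1%, and Mir5099 and Mir703 stand out as high signals at a low share.

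The comparison of KO with WT asks whether these genes differ in the refed liver when Gpr146 is missing. With all 6 mice no member passed limma's adjusted p threshold of 0.05, where 4 of the 11090 genes tested (0.0361%) did. The lowest adjusted p of a member was 0.245, for Mir122. At an unadjusted p under 0.05 there were 17 members (15.6%), 13 with the higher mean in KO and 4 with the lower, against 9.13% of all genes tested. The direction was 6.16% higher and 2.98% lower over all genes, and 11.9% and 3.67% over the members. After quantile normalization the members divided 11 to 6 and all genes 494 to 584, where the deposited values gave 683 to 330. So the balance of directions among all genes depended on the scaling.

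KO and WT values did not overlap in 13 members (11.9%), against 14.8% of all genes, a share near the background. Every KO mouse was above every WT mouse in 12 (11.01%, against 9.63% of all genes) and below in 1 (0.917%, against 5.16%). The median difference over the members was 0.02 on the log2 scale, beside 0.03 over all genes, with 58 members above 0 and 51 below; after quantile normalization these medians were -0.02 and -0.0098. Differences of more than 0.5 in size were found for 11 members (10.1%), against 2.28% of all genes, 8 of them higher in KO. The other 98 members lay between -0.45 and 0.50, and 72 were within 0.2 of 0. The typical standard error of a member was also larger than that of all genes, 0.14 against 0.11.

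Leaving out 1 mouse changed the calls for 3 members. Without WT mouse 3, Mir122 and Mir1938 passed limma's threshold, and without WT mouse 1, Mir107 did. No member passed without any 1 of the other 4 mice. Over all 11090 genes tested, 51 passed without WT mouse 3 and 2 without WT mouse 1, where 4 passed with no mouse left out. The calls of Mir122 and Mir1938 thus came in a fit that called more genes in general, and are not particular to microRNA genes.

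**Figure D3:**
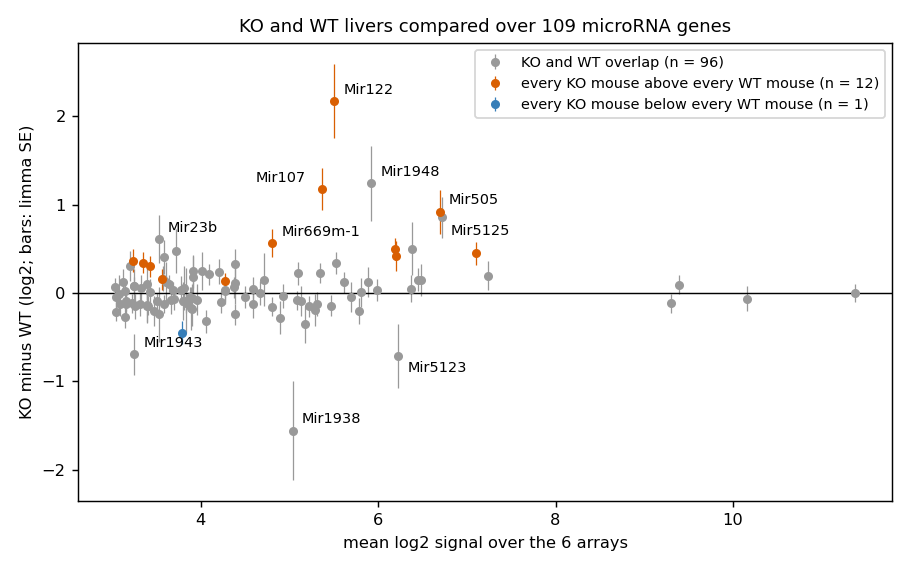
KO minus WT difference in log2 signal with limma's standard error (y axis) against the mean log2 signal (x axis) for the 109 members, coloured by whether the mice of the groups overlap. Mir122 at 2.17, Mir1948 at 1.24 and Mir107 at 1.17 lie highest and Mir1938 at -1.55 lowest, and the 4 members of highest signal lie near 0.

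Mir122, the hepatocyte microRNA, had the widest gap. Its log2 signal was 3.41, 4.50 and 5.35 in WT and 6.43, 7.04 and 6.31 in KO. Every KO mouse was above every WT mouse, and the WT mice were more widely spread than the KO mice. The means were 4.42 ± 0.97 in WT and 6.59 ± 0.39 in KO (SD, n = 3 each). The difference was 2.17 ± 0.42 (SE), a 4.52-fold higher signal in KO, with limma's adjusted p at 0.245. The exact two-sided permutation test gave p = 0.1, and 3 mice against 3 can give no lower p. Without WT mouse 3, the highest of its group, it was 2.64 ± 0.32 with limma's adjusted p at 0.0127. Leaving out WT mouse 1, the lowest, gave 1.67 ± 0.29 with limma's adjusted p at 0.439.

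Mir107 lies in Pank1, which makes a kinase for coenzyme A synthesis, and Mir107 is known for its link to insulin sensitivity in liver. It measured 5.40, 4.43 and 4.51 in WT and 6.15, 5.87 and 5.85 in KO. Again no KO mouse overlapped a WT mouse, and WT mouse 1 was the nearest. The difference was 1.17 ± 0.24 (SE), or 2.26-fold, with limma's adjusted p at 0.272; the exact permutation test gave 0.1. Without WT mouse 1 it was 1.48 ± 0.13, with limma's adjusted p at 0.0249. Leaving out any other single mouse gave a difference from 0.998 to 1.23, with limma's adjusted p from 0.247 to 0.474.

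The Mir107 gap was not seen in the gene around it, and the genes that share its seed were too weak in signal to judge. Pank1 measured 8.72, 8.79 and 8.82 in WT and 8.56, 8.74 and 8.66 in KO, a difference of -0.12 ± 0.09 with limma's adjusted p at 0.722. Within each mouse, Mir107 minus Pank1 was -3.31, -4.36 and -4.30 in WT and -2.41, -2.86 and -2.82 in KO, with no overlap. Mir103-2 differed by -0.05 and Mir103-1 by 0.01, and both overlapped between groups. Neither is a member and neither passed the signal filter. Their means of 2.06 and 1.76 lay under the receptor genes' 95th percentile of 2.90, where a gap might not show.

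Mir505, on chromosome X, measured 6.35, 5.60 and 6.74 in WT and 7.33, 7.06 and 7.07 in KO. The groups did not overlap, and WT mouse 2 was the lowest. The difference was 0.92 ± 0.25 (SE), or 1.89-fold, with limma's adjusted p at 0.347; leaving out WT mouse 2 gave 0.61, and leaving out WT mouse 3 gave 1.18. Mir680-2, also on chromosome X, measured 6.06, 5.89 and 5.87 in WT and 6.65, 6.40 and 6.26 in KO, 0.50 ± 0.12 higher in mean, with limma's adjusted p at 0.314. Mir680-3, which makes the same mature strand from chromosome 12 and was chosen after its values were seen, differed by -0.17 ± 0.24.

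Mir5125 and Mir1948 also had higher means in KO, but with overlap. Mir5125, inside the splicing factor gene Srrm2, measured 6.07, 6.82 and 5.98 in WT and 7.36, 7.30 and 6.78 in KO, a difference of 0.86 ± 0.24 with limma's adjusted p at 0.347. WT mouse 2 was above KO mouse 3. Mir1948, inside Ttc39c and chosen after its values were seen, measured 6.44, 4.56 and 4.91 in WT and 6.18, 6.80 and 6.66 in KO. WT mouse 1 was above KO mouse 1. The difference was 1.24 ± 0.42 with all mice and 1.81 ± 0.20 without WT mouse 1, with limma's adjusted p at 0.431 and 0.0835. It fell to 0.87 without WT mouse 2 and to 1.04 without WT mouse 3, with limma's adjusted p at 0.557 and 0.568.

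Further members of weaker signal had no overlap and the higher values in KO, among them Mir139, Mir665 and Mir721. Mir139, in the phosphodiesterase gene Pde2a, measured 2.95, 3.27 and 3.30 in WT and 3.503, 3.58 and 3.48 in KO, a difference of 0.35 ± 0.12 with limma's adjusted p at 0.423. Mir665 measured 2.97, 3.11 and 3.08 in WT and 3.69, 3.21 and 3.36 in KO, a difference of 0.37 ± 0.13 with limma's adjusted p at 0.442, and 0.23 without KO mouse 1. Mir721, in the gene of the transcription factor Cux1, measured 3.39, 3.39 and 3.05 in WT and 3.498, 3.61 and 3.63 in KO, a difference of 0.30 ± 0.12 with limma's adjusted p at 0.484, and 0.19 without WT mouse 3. These levels are close to the limit of 3.0, where the receptor genes also reach.

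Mir721 was also the only member within 5 Mb of Gpr146 in the reference. The other 2 microRNA genes in that window lay under 3.0. Mir339 measured 2.99, 2.63 and 2.68 in WT and 3.06, 3.09 and 2.91 in KO, with overlap, and Mir106b had a mean of 2.69. Neither passed the signal filter, so neither was tested.

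Mir598 was the 1 member whose KO values were all below WT. It measured 4.30, 3.80 and 3.95 in WT and 3.51, 3.59 and 3.60 in KO. The difference was -0.45 ± 0.13 with limma's adjusted p at 0.364. The KO mice were within 0.1 of each other.

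The lowest difference belonged to Mir1938, named with the following members after their values were seen. It lies in Ifrd1, which encodes an interferon-related developmental regulator. Mir1938 measured 6.64, 6.61 and 4.20 in WT and 4.31, 4.13 and 4.34 in KO. WT mouse 3 was at the KO level, and the other 2 WT mice were far above it. The difference was -1.55 ± 0.56 with limma's adjusted p at 0.448, and -2.36 ± 0.11 without WT mouse 3, with limma's adjusted p at 0.000121. That omission took away the 1 WT value at the KO level, so a low p was favoured by the choice. Without WT mouse 1 the difference was -1.14 and without WT mouse 2 it was -1.16, with limma's adjusted p at 0.683 and 0.578. Ifrd1 itself measured 6.31, 6.13 and 5.50 in WT and 5.001, 5.24 and 5.29 in KO, with WT mouse 3 lowest of its group but above every KO mouse. Its difference was -0.80 ± 0.20 with limma's adjusted p at 0.314, and -1.04 ± 0.13 without WT mouse 3, with limma's adjusted p at 0.0146. Over all alternatives the Ifrd1 difference ranged from -1.04 to -0.64, and limma's adjusted p from 0.0146 to 0.522.

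Mir1943 and Mir5123 also had lower means in KO, with overlap. Mir1943, in Tmem184b, measured 3.58, 3.12 and 4.10 in WT and 2.75, 2.79 and 3.17 in KO, a difference of -0.69 ± 0.23 with limma's adjusted p at 0.421; it came to -0.44 when WT mouse 3 was left out and -0.93 when WT mouse 2 was. Its KO mean of 2.90 was under the limit of 3.0, so its WT values alone carried it over that limit, and a difference in that direction was favoured by the choice. Mir5123, in the galactosyltransferase gene B4galt1, measured 6.59, 7.43 and 5.73 in WT and 5.96, 6.11 and 5.55 in KO, a difference of -0.71 ± 0.36 with limma's adjusted p at 0.602. Its WT values spread over more than the difference, which came to -0.29 when WT mouse 2 was left out and -1.14 when WT mouse 3 was. Their host genes differed by -0.07 ± 0.14 and 0.01 ± 0.12. Mir3091 was the remaining member with the lower mean in KO at an unadjusted p under 0.05, with a difference of -0.32 ± 0.13 and limma's adjusted p at 0.522, and -0.21 without KO mouse 3.

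**Figure D4:**
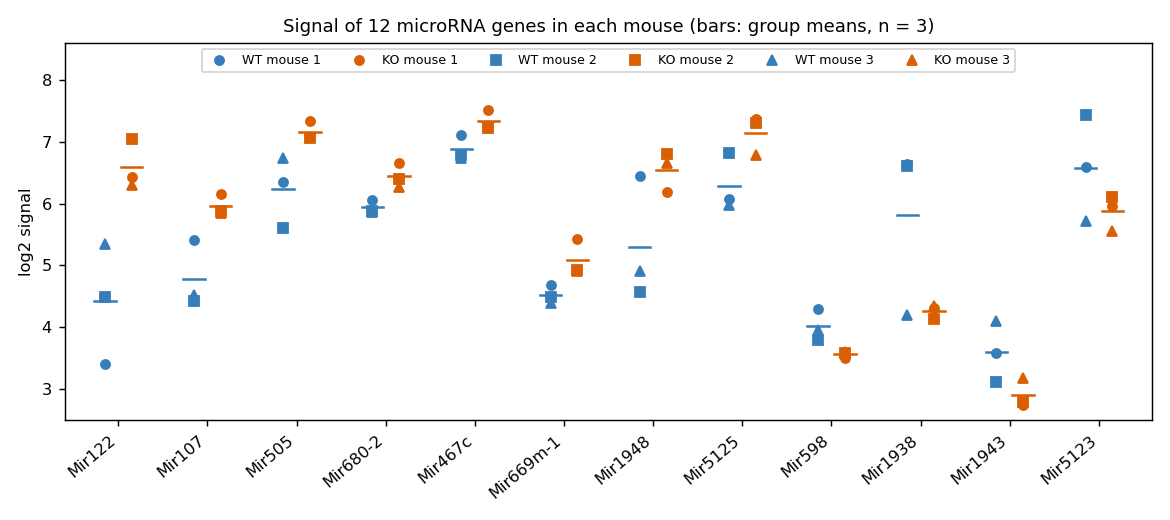
Log2 signal (y axis) in each WT and KO mouse for 12 members, with bars for the group means (n = 3). In Mir122 and Mir107 every KO mouse lies above every WT mouse, and in Mir1938 WT mouse 3 at 4.20 lies among the KO mice.

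Members inside Sfmbt2, a polycomb gene that holds a large rodent cluster of related microRNAs, lay on the same side. Mir467c measured 7.11, 6.78 and 6.74 in WT and 7.51, 7.21 and 7.26 in KO, a difference of 0.45 ± 0.13. Mir467e measured 6.14, 6.13 and 5.71 in WT and 6.74, 6.27 and 6.23 in KO, a difference of 0.42 ± 0.17 that was 0.26 without KO mouse 1 and 0.28 without WT mouse 3. Mir669m-1 measured 4.69, 4.48 and 4.39 in WT and 5.43, 4.93 and 4.91 in KO, a difference of 0.57 ± 0.16. KO mouse 1 was the highest mouse for all 3.

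For the last of the 4 members there, Mir669m-2, chosen after its values were seen, the KO mice were at 3.69, 3.62 and 3.62 and the WT mice at 3.26, 3.61 and 3.60, so the groups were separate by little, and the difference of 0.16 ± 0.12 was 0.04 without WT mouse 1. Limma's adjusted p-values were 0.364 for Mir467c, 0.509 for Mir467e, 0.347 for Mir669m-1 and 0.714 for Mir669m-2. These 4 genes belong to families of related sequence within 1 gene; how far their probe sets read each other's RNA was not tested, so they are uncertain and are not taken as 4 separate observations. Of all 22 microRNA genes there 16 had a difference above 0, with a median of 0.08. Only 4 of the 22 reached 3.0, and of all 11090 genes tested 6402 had a difference above 0. Sfmbt2 itself was below the signal filter and differed by -0.12.

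The imprinted cluster between Dlk1 and Dio3 did not show such a gap. It holds 43 microRNA genes, of which 10 were members: Mir673, Mir758, Mir667, Mir341, Mir494, Mir3070b, Mir329, Mir539, Mir665 and Mir666. Differences were above 0 in 4 and below in 6, from -0.14 to 0.37, with a median of -0.03. Mir665 was the only 1 of the 10 without overlap.

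Mir15a and Mir16-1, chosen after their values were seen, had small differences. Mir16-1 measured 4.22, 4.26 and 4.12 in WT and 4.34, 4.29 and 4.39 in KO, separate groups that differed by 0.14 ± 0.09 with limma's adjusted p at 0.668. Mir15a differed by 0.23 ± 0.11 with limma's adjusted p at 0.593, and Dleu2 by 0.10 ± 0.13.

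Further members with wider gaps, also chosen after their values were seen, overlapped between groups. Mir23b, in Aopep, measured 2.69, 3.49 and 3.47 in WT and 3.43, 4.36 and 3.70 in KO, a difference of 0.61 ± 0.27 with limma's adjusted p at 0.555. Leaving out WT mouse 1 or KO mouse 2 gave 0.35 in either case. Mir210, known for its induction by low oxygen, measured 5.57, 5.28 and 5.22 in WT and 5.77, 5.55 and 5.76 in KO, a difference of 0.34 ± 0.12 with limma's adjusted p at 0.452. Mir5124a, in Gcnt2, measured 6.55, 6.46 and 5.40 in WT and 7.03, 6.34 and 6.53 in KO. WT mouse 3 was far below the others; the difference was 0.50 ± 0.30 with limma's adjusted p at 0.641, and 0.14 when that mouse was left out.

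Of the 10 members of highest signal, Mir467c, Mir5125 and Mir505 had the gaps given above, and the other 7 differed less. Mir5099 measured 11.53, 11.39 and 11.23 in WT and 11.42, 11.32 and 11.40 in KO. Mir449b differed by -0.06 ± 0.14, Mir703 by 0.09 ± 0.11, Mir692-1 by -0.12 ± 0.10, Mir1195 by 0.20 ± 0.16, Mir3058 by 0.15 ± 0.19 and Mir1954 by 0.15 ± 0.13. Each of these 7 was within 2 standard errors of 0.

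The liver and tissue marker members, apart from Mir122, likewise stayed within 2 standard errors of 0. Mir194-1, a hepatocyte and gut microRNA, measured 4.27, 4.49 and 4.03 in WT and 4.39, 3.99 and 4.51 in KO, a difference of 0.03 ± 0.16. Mir194-2 differed by -0.12 ± 0.14 and Mir455 by 0.25 ± 0.22. Of the liver-abundant set, Mir30c-2 differed by -0.09, Mir30d by 0.08, Mirlet7a-1 by -0.12 and Mirlet7d by 0.07. Of the markers of other tissues, Mir143 differed by 0.10 (-0.12 without WT mouse 3), Mir451a by 0.11, Mir9-1 by -0.13, Mir9-3 by 0.01 and Mir375 by -0.15.

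The mice of a group also differed among themselves. The median over the members was 4.28, 4.02 and 4.10 in WT and 4.31, 4.22 and 4.06 in KO. WT mouse 1 had the highest WT value in 63 members, and KO mouse 1 the highest KO value in 58. The median SD within a group was 0.20 in WT and 0.19 in KO, but it was over 0.5 in 11 members in WT and 5 in KO.

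Members were set against the longer genes that hold them in the reference. A longer gene held 75 members, on the same strand for 48, the opposite strand for 5 and an unknown strand for 22, and 34 lay in none. Whether a member lies in an exon or an intron was not resolved. For 47 members the host also passed the signal filter, and the difference of the member and of its host had the same sign in 29. The Pearson r of the 2 differences was 0.54 and the Spearman rho 0.34, as a description over pairs that share the same arrays. Over the 39 pairs on the same strand they were 0.53 and 0.26. The pair of Mir1938 (-1.55) and Ifrd1 (-0.80) lay lowest on both sides, and its weight in these values was not tested.

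None of the 45 host genes tested passed limma's adjusted threshold, and 4 had an unadjusted p under 0.05, 2 in each direction (4.44% each, against 6.16% of all genes higher and 2.98% lower). Both directions together came to 8.89%, near the 9.13% of all genes. Their median difference was 0.07, beside 0.03 over all genes. Ifrd1 and Mir1938 were the lowest of both sets. Srrm2, the host of Mir5125, measured 8.49, 8.70 and 8.37 in WT and 8.88, 8.69 and 8.73 in KO, a difference of 0.25 ± 0.11 with limma's adjusted p at 0.562. Ttc39c, the host of Mir1948, differed by 0.34 ± 0.22, and Aopep, the host of Mir23b, by 0.23 ± 0.10 with every KO mouse above every WT mouse. Pde2a and Cux1 differed by 0.12 ± 0.11 and 0.07 ± 0.10.

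**Figure D5:**
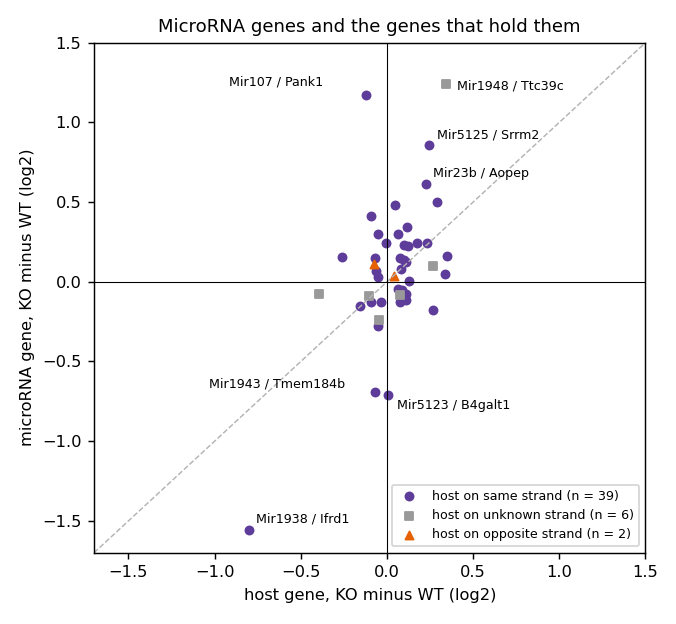
KO minus WT difference in log2 signal of the host gene (x axis) and of the member it holds (y axis) for 47 pairs, marked by strand, with the line of equal difference dashed. Mir1938 and Ifrd1 lie low together, at -1.55 and -0.80, and Mir107 lies at 1.17 with Pank1 at -0.12.

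The genes that make and use microRNAs were compared in the same fit. Of 45 listed, 35 were tested, and none passed limma's adjusted threshold; 3 had an unadjusted p under 0.05, all higher in KO (8.57%, against 6.16% of all genes higher and 9.13% in either direction). Their median difference was 0.04. Of the processing steps, Drosha differed by -0.17 ± 0.11, Xpo5 by 0.24 ± 0.15, Dicer1 by 0.04 ± 0.10 and Ago2 by 0.02 ± 0.10. Dgcr8 was not among the genes tested.

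The lowest p-values in that list belonged to genes of RNA decay. Dis3l2, an exonuclease that degrades tagged precursors of the let-7 family, measured 5.18, 5.19 and 5.25 in WT and 5.56, 5.72 and 5.42 in KO, a difference of 0.36 ± 0.10 with limma's adjusted p at 0.358. Pan2 and Pan3, the partners of a deadenylase that shortens tails of silenced messages, differed by 0.36 ± 0.11 and 0.32 ± 0.10, with limma's adjusted p at 0.373 and 0.380. Ddx5, a helicase that works with Drosha, differed by 0.25 ± 0.12.

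Published targets were read for 3 liver microRNAs, and no target passed limma's adjusted threshold with all 6 mice. Mir21a, the last of the 3, had no probe set with 1 symbol, so its own signal was not read. Over all genes tested, 9.13% had an unadjusted p under 0.05 in limma, and 2.98% had such a p with the lower mean in KO. For Mir122, 14 of 18 listed targets were tested, with a median difference of -0.06, and 2 (14.3%) had such a p, both lower in KO. These were Ccng1, encoding a cyclin, at -0.27 ± 0.10 with limma's adjusted p at 0.487, and the transcription factor gene Klf6 at -0.63 ± 0.28 with limma's adjusted p at 0.546. Klf6 measured 5.14, 5.96 and 4.74 in WT and 4.86, 4.72 and 4.36 in KO, with overlap, and its difference was -0.29 without WT mouse 2. No Mir122 target had an unadjusted p under 0.05 in limma when WT mouse 2 or KO mouse 2 was left out.

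Mir33, which lies in the sterol regulator gene Srebf2 and is known to repress cholesterol export, was not a member. Its mean was 1.83 and its difference -0.09, with Srebf2 at -0.12. Of its 13 listed targets 12 were tested, with a median difference of -0.08. In each direction 1 had an unadjusted p under 0.05 in limma (8.33%), against 6.16% of all genes higher and 2.98% lower. Abcb11, the bile salt export pump, differed by 0.45 ± 0.14 with limma's adjusted p at 0.389, and Crot, a peroxisomal fatty acid transferase, by -0.29 ± 0.12 with limma's adjusted p at 0.502.

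For Mir21a, 11 of 13 listed targets were tested, with a median difference of -0.03. Among them 1 (9.09%) had an unadjusted p under 0.05 in limma, lower in KO, against 2.98% of all genes lower and 9.13% in either direction. That target was Btg2, an early-response gene, at 8.72, 8.68 and 4.34 in WT and 4.77, 3.90 and 4.28 in KO. Its WT mouse 3 was at the KO level, as for Mir1938. The difference was -2.93 ± 1.01 with limma's adjusted p at 0.437, and -4.38 ± 0.22 without WT mouse 3, with limma's adjusted p at 0.000121. The second by p was Timp3, at -0.25 ± 0.18.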

How the data were processed

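Each liver was measured on 1 array. Per the labels' protocols, total RNA was extracted with Trizol and biotin-labelled for a whole-transcript Affymetrix array. The authors deposited 1 table of log2 values, 41345 probe sets by 6 mice. How they were background-corrected, normalized and summarised is not stated in the sources used here. Array maxima of 12.1 to 12.2 gave the log2 scale, being too high for natural logs of this kind of scanner's readings.

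Genes were named from the platform annotation: 23521 probe sets carried 1 symbol, 1814 several and 16010 none. Only the first kind was used. Left out were 136 probe sets that list a microRNA among several symbols, of which 60 had a mean of at least 3.0. The highest-mean probe set stood for a gene, and the upper 50% by mean signal (2.99 or more), 11090 genes, went into a two-sided limma fit (version 3.58.1, R 4.3.3; lmFit, eBayes), with p-values adjusted by Benjamini-Hochberg over them all. The fit was tested on simulated data. Alternatives changed the filter, the probe set rule, the scaling, a pseudocount, limma's options and weights, the replicate block, the member minimum, or left out 1 mouse.

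Members and lists were chosen with earlier results of these data known. Named genes were members past the threshold; those of smallest p without overlap, up to 10 per direction; the 10 highest and 3 lowest members and 3 genes just under the limit; members within 5 Mb of Gpr146; marker microRNA genes; hosts of these; set biogenesis genes with the 4 of smallest p; and 2 targets per list. The text says where other members were picked with their values in view. Weak array signals understate folds.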

Additional observations from a re-analysis of the deposited data

How the results depend on the processing

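Of 1179 repeats over 81 named genes and 15 alternatives, 1135 kept the direction and the side of the threshold, 8 passed it and 36 changed sign. No gene that changed sign differed by more than 0.171 in size. The count over all genes, 4, was 0 in the upper 25% of signal (limma; 567 at an unadjusted p under 0.05), 1 with a pseudocount of 8, and 1 to 51 with 1 mouse left out. Members called ranged from 0 to 2, hosts from 0 to 1 and Mir21a targets from 0 to 1 with 1 mouse left out, the 1 host and the 1 target without WT mouse 3. A minimum of 4.0 left 56 members. Mouse numbers did not pair the animals (correlations 0.055, -0.187 and 0.147); with the replicate block limma called 1 gene and no member (22 at an unadjusted p under 0.05).

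Quantile normalization gave medians of -0.0106 for biogenesis genes and 0.0226 for hosts, and differences of -0.0192 for Mir194-1, -0.0201 for Mir9-3, -0.00027 for Iars2, -0.036 for B4galt1, -0.00061 for Dicer1 and -0.018 for Ago2. Median centring gave -0.00095 for Mir9-3 and -0.0079 for B4galt1, and array weights -0.0073 for Mir194-1. The cause was not tested.

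With 1 mouse left out, the host median ranged from 0.016 to 0.088 and that of Mir33 targets from -0.12 to 0.034. Differences ranged from -0.079 to 0.071 for Mir5099, -0.22 to 0.026 for Mir449b, -0.025 to 0.33 for Mir3058, -0.12 to 0.055 for Mir760, -0.081 to 0.19 for Mir194-1, -0.12 to 0.26 for Mir143, -0.25 to 0.0046 for Mir9-1, -0.14 to 0.15 for Mir9-3 and -0.39 to 0.11 for Mir680-3. They ranged from -0.039 to 0.19 for Nudt4, -0.14 to 0.034 for Eng, -0.036 to 0.10 for Iars2, -0.16 to 0.083 for Tmem184b, -0.076 to 0.11 for B4galt1, -0.0019 to 0.20 for Dleu2, -0.014 to 0.10 for Dicer1, -0.057 to 0.084 for Ago2 and -0.024 to 0.0005 for Alb. With 3 mice a group and many members at low signal, gaps near 2 standard errors cannot be told from the spread between mice.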
